A study of Mus musculus with 6 samples.

Results

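The genes of 10 transcription factors that carry the antigen receptor signal into the T-cell nucleus were taken from a table of 55401 mouse genes: Egr1, Egr2 and Egr3 of the EGR family, Nr4a1, Nr4a2 and Nr4a3 of the NR4A family, Nfatc1, Nfatc2 and Nfatc3 of the NFAT family, and Myc. Their rows were found by gene symbol, and the members were chosen with earlier results of these data known. Bulk RNA sequencing had been run on 6 mouse T-cell samples to ask what macrophages exposed to neurofilament light chain (NFL), which builds the axon's skeleton, do to T cells through the factors they release. The samples were 3 cultures with supernatant of untreated macrophages (control) and 3 with supernatant of NFL-treated macrophages (NFL). In both groups the macrophages came from CD11b-selected spleen cells kept in 50 ng/mL M-CSF for 7 days, and the culture medium was 50% macrophage supernatant and held 2% serum. The deposited design text gives 5 µg/mL NFL for 24 h, prepared from sciatic nerve broken by freezing and thawing, while the methods of the study name another dose for co-culture. Those methods use freezing and thawing of sciatic nerve to make nerve lysate, a separate treatment, and name a purchased NFL for mice. Whether the macrophages received NFL alone or a nerve lysate is thus not settled. The design text also gives spleen and CD8a beads as the source of the T cells, whereas the sample labels say only that they were T cells. The labels do not say whether the 3 samples of a group came from separate animals, so the p-values measure the spread between these samples, which may be technical.

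The 4 families stand at different steps of one response. NFAT proteins wait in the cytoplasm in phosphorylated form. A rise in calcium activates calcineurin, which strips the phosphates so that NFAT enters the nucleus and binds cytokine genes, often together with AP-1. EGR factors are zinc finger proteins made within minutes of a stimulus. Egr2 and Egr3 restrain the response and are tied to anergy. NR4A factors are orphan nuclear receptors, likewise induced early, and are tied to tolerance and exhaustion. MYC, paired with MAX, drives growth, ribosome production and metabolism before division. Because NFAT is set mainly by its phosphorylation, RNA levels do not report its activity.

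Nr4a3 RNA was higher in the NFL libraries, Nfatc2 and Nfatc1 RNA were lower, and the other members either did not pass the test or had too few reads for one. Nr4a3 was 1.41-fold higher (95% interval 1.28 to 1.56), while Nfatc2 stood at 0.819 of its control level (0.773 to 0.869) and Nfatc1 at 0.834 (0.753 to 0.924). Of the 10 members, 7 had enough reads to be tested and 3 of these 7 were called at an adjusted p under 0.05 by edgeR's quasi-likelihood test. The call of Nfatc1 was lost in 4 of 15 alternative processings, while those of Nr4a3 and Nfatc2 held in all 15. Among all 14082 genes tested, 7.00% were called, 3.47% in the higher and 3.53% in the lower direction. Calls were more frequent among better read genes, 10.2% at 10 CPM or more, where all 3 called members lie, and 17.7% at 100 CPM or more.

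The promoters of the NR4A members are shown because Nr4a3 was called and Nr4a2 was not, while their promoters hold the same short motif equally often, and that of Nfatc2 because it was the member with the clearest fall. Each window runs from 250 bases before to 50 after the transcription start in RefSeq (mouse build GRCm38.p6), read along the gene. In the NR4A windows capitals mark the half-site of the cAMP response element, TGACG or its reverse complement CGTCA, which CREB and related factors bind. In the Nfatc2 window capitals mark the NFAT core GGAAA or its reverse complement TTTCC.
Nr4a3, chr4:48045055-48045354, plus strand: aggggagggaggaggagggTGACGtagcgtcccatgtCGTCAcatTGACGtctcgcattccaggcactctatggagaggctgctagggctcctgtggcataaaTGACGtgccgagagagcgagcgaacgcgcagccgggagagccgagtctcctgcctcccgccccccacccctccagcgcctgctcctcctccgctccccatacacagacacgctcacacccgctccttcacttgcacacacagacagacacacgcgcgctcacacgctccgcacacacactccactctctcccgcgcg
Nr4a2, chr2:57123954-57124253, minus strand: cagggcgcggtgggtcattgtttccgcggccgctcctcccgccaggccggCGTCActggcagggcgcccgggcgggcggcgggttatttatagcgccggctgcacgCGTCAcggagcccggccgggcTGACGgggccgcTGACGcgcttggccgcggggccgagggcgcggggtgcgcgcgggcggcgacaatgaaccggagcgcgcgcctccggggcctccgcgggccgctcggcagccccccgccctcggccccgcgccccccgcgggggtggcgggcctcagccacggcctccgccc
Nr4a1, chr15:101266596-101266895, plus strand: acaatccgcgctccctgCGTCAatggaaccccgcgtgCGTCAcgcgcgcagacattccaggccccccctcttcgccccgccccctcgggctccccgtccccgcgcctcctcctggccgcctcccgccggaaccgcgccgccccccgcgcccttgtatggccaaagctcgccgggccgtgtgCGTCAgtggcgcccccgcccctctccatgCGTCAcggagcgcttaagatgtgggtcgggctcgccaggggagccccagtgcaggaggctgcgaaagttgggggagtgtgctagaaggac
Nfatc2, chr2:168601608-168601907, minus strand: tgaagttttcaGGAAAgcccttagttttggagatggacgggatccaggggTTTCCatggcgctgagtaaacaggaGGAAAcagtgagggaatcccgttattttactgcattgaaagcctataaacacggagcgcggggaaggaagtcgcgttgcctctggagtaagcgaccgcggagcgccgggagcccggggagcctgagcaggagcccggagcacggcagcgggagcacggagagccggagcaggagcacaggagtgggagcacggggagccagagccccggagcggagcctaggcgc

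Each of the 3 NR4A windows holds 4 half-sites. Of the 32851 promoter windows of the same length, 20.8% hold at least 1, and the share that hold 4 was not counted. In Nr4a3 the half-sites lie between positions -231 and -143 from the start, in Nr4a2 between -200 and -107, and in Nr4a1 between -233 and -36. The full palindrome TGACGTCA, present in 1.79% of windows, is in none of them. The Nr4a2 window also holds 1 NFAT core and 1 TATA box, TATAAA on the opposite strand. Neither is in the Nr4a3 or Nr4a1 window. The Nfatc2 window shown holds 3 NFAT cores, a motif present in 61.3% of windows, and no half-site. A second Nfatc2 start in RefSeq, not shown, has 1 NFAT core and no half-site in its window. The palindrome contains the half-site, so a palindrome would also count as half-sites. Windows of 6 of the 10 members were used, and none of Egr1, Egr3, Nfatc1 or Myc. Member windows on 1 chromosome were left out of the search, so a missing window does not mean that RefSeq holds none. These are descriptions of letters and not of bound sites.

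NR4A family. Nr4a3, known as NOR1, binds DNA without a known natural ligand. Its level, as counts scaled to library size (CPM) with the trimmed mean of M values (TMM), was 25.9, 27.7 and 29.1 in control replicates 1 to 3 and 39.1, 37.8 and 39.99 in NFL replicates 1 to 3. Every NFL library lay above every control library, and the gap between the groups was wider than the range within either. The control mean was 27.6 ± 1.59 and the NFL mean 39.0 ± 1.08 CPM (SD, n = 3 each). This log2 fold change of 0.50 had a standard error of 0.0692 and an edgeR adjusted p of 5.70e-07. Between 441 and 711 reads per library stood behind these values. Nr4a3 was the gene ranked 62 of 14082 by p-value, and its log2 fold change lay above the median size of 0.19 among all called genes.

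Nr4a2, or NURR1, is the close relative of Nr4a3 and is best known from dopamine neurons. It was read at 13.7, 13.5 and 12.4 CPM in the control libraries and at 11.5, 11.6 and 12.9 CPM in the NFL libraries. The groups overlapped, since NFL replicate 3 stood above control replicate 3. Its log2 fold change was -0.13 with a 95% interval from -0.35 to 0.08 (edgeR adjusted p = 0.561), so that a fall of the size seen in Nfatc2 lies within the interval and a rise of the size seen in Nr4a3 lies outside it. Nr4a1, or NUR77, widely used as a reporter of antigen receptor signalling, had 2 reads in control replicate 1 and none in the other 5 libraries. A count of 0 allows up to 3 reads, which at the depths of those 5 libraries corresponds to 0.123 to 0.189 CPM, and no fold change can be given.

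Inside each library the number of Nr4a3 reads per Nr4a2 read was 1.89, 2.05 and 2.35 in the control group and 3.40, 3.26 and 3.10 in the NFL group. This ratio does not depend on how libraries are scaled. It was higher in every NFL library, by 0.64 on the log2 scale (SE 0.101), with an exact two-sided permutation p of 0.1, the smallest that 3 samples against 3 can give. Over the 4 within-library ratios computed here the Benjamini-Hochberg adjusted exact permutation p was 0.133. Counted per kilobase of exon, Nr4a3 held 58.5% of the summed NR4A level in the control group and 68.8% in the NFL group, and the rest was almost entirely Nr4a2. The summed NR4A level ranged from 7.74 to 7.95 CPM per kilobase in the control libraries and from 9.19 to 9.86 in the NFL libraries.

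**Figure D1:**
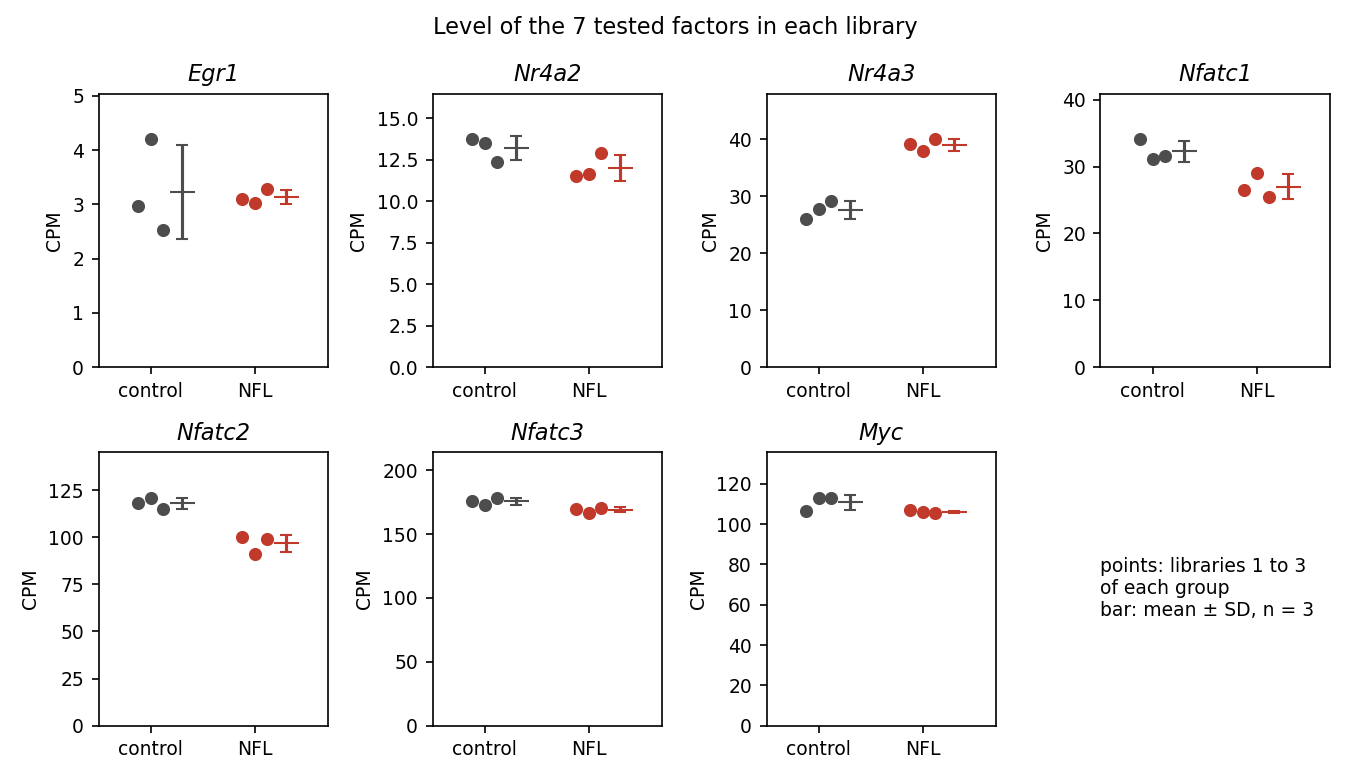
Level of the 7 tested factors in CPM on linear axes that start at 0, with a point for each of the 3 libraries of a group and a bar for the mean ± SD. Nr4a3 is the gene whose NFL points all lie above the control points (37.8 to 39.99 against 25.9 to 29.1 CPM), while those of Nfatc1, Nfatc2 and Nfatc3 lie below them.

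NFAT family. Nfatc2, or NFAT1, is the form that resting T cells hold ready. Its level was 118.2, 121.0 and 115.2 CPM in the control libraries and 99.95, 91.3 and 98.8 CPM in the NFL libraries. The groups did not overlap, and the gap between them was again wider than the range within either, with NFL replicate 2 the lowest library. The control mean was 118.1 ± 2.92 and the NFL mean 96.7 ± 4.68 CPM (SD, n = 3 each). The fitted log2 fold change was -0.29, with a standard error of 0.0421 and an edgeR adjusted p of 1.89e-06. It was ranked 77 by p-value, with 1571 to 2909 reads per library. Because more reads let smaller differences pass the test, the share called among genes of at least 100 CPM is the nearer background for Nfatc2, and there 7.32% were called lower.

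Nfatc1, or NFAT2, has a short form that is induced in activated T cells and sustains itself. The libraries held 34.1, 31.1 and 31.6 CPM in the control group and 26.5, 29.0 and 25.4 CPM in the NFL group. The groups did not overlap, but the highest NFL library, replicate 2, lay about as far from the other NFL libraries as from the lowest control library. The log2 fold change was -0.26 (SE 0.0734) with an edgeR adjusted p of 0.0179. This call was less firm than those of Nr4a3 and Nfatc2. It was lost without control replicate 1 (log2 fold change -0.22, adjusted p = 0.143), without NFL replicate 1 (-0.25, adjusted p = 0.0713) and without NFL replicate 3 (-0.22, adjusted p = 0.150), and also with trends in GC content and gene length removed (-0.22, adjusted p = 0.0533). Counts per gene do not separate the short from the long form.

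Nfatc3, or NFAT4, is the third calcium-regulated member measured and is abundant in developing T cells. It was read at 175.6, 172.9 and 178.5 CPM in the control libraries and at 169.8, 166.7 and 170.4 CPM in the NFL libraries. All NFL libraries lay below all control libraries, but by little, and the log2 fold change was -0.06 (95% interval -0.13 to 0.01, edgeR adjusted p = 0.389). The interval leaves out a fall as large as that of Nfatc2. Groups without overlap were found in 4 of the 7 tested members (Nr4a3, Nfatc1, Nfatc2 and Nfatc3), against 22.7% of all genes tested. Part of the Nfatc3 exons, 219 bases, is shared with Esrp2 on the opposite strand, whose reads numbered 8 to 28 per library, and how reads in the overlap were assigned is not given in the sources used here.

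The 3 NFAT genes were also set against each other inside each library. Reads of Nfatc2 per read of Nfatc3 were 0.673, 0.6998 and 0.645 in the control libraries and 0.589, 0.548 and 0.580 in the NFL libraries, lower in all 3 NFL libraries by 0.23 on the log2 scale (SE 0.0463, exact permutation p = 0.1, adjusted 0.133). For Nfatc1 per read of Nfatc3 the log2 difference was -0.20 (SE 0.0771, exact permutation p = 0.1, adjusted 0.133). Nfatc1 per read of Nfatc2 overlapped between the groups, with a log2 difference of 0.03 (SE 0.106, exact permutation p = 0.8, adjusted 0.8). Per kilobase, Nfatc3 made up 49.2% of the summed NFAT level in the control group and 53.1% in the NFL group, Nfatc2 36.6% and 33.6%, and Nfatc1 14.2% and 13.3%. The sum itself was 30.3 to 30.7 CPM per kilobase in the control and 26.7 to 27.5 in the NFL libraries.

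**Figure D2:**
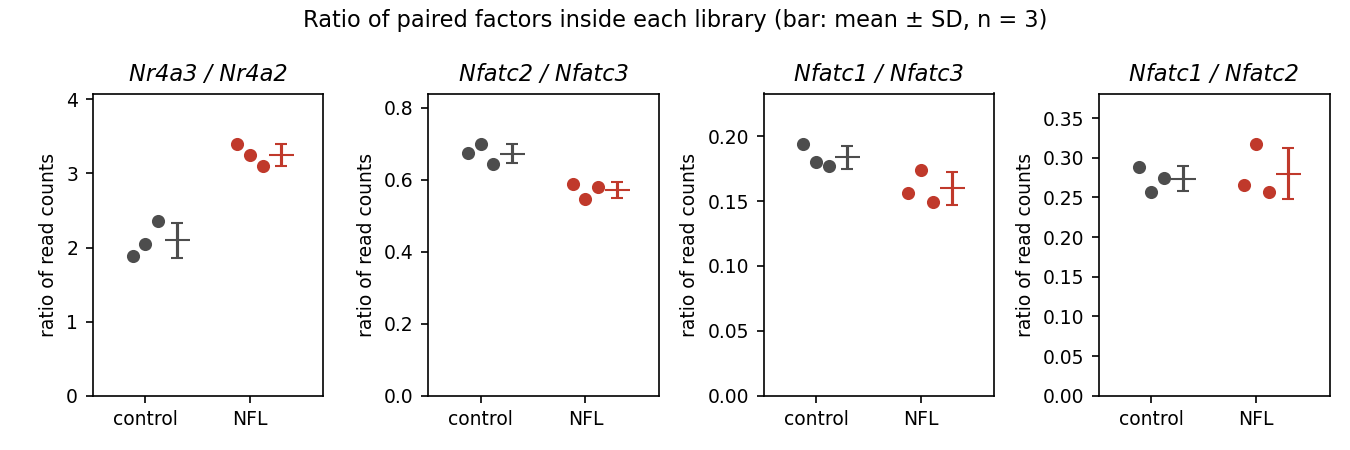
Ratio of the read counts of paired factors inside each library, not corrected for gene length, with a point per library and the mean ± SD of 3 libraries. Nr4a3 per Nr4a2 is higher in all NFL libraries (3.10 to 3.40 against 1.89 to 2.35), Nfatc2 and Nfatc1 per Nfatc3 are lower in all of them, and Nfatc1 per Nfatc2 overlaps.

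The NFAT genes are long, and gene length moved with the calls. All 3 tested NFAT members fall in the longest of 4 equal length classes of the genes tested, in which 5.92% of genes were called lower against 1.79% in the shortest class, while the share called higher was 3.24% in both. With GC content and length trends removed, an alternative chosen after seeing the data, the log2 fold change of Nfatc2 was the smallest in size of all alternatives, -0.24, and was still called. The part of length in the NFAT results was not tested beyond this.

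EGR family and Myc. Egr1, the first EGR factor to appear after a stimulus, was at 2.97, 4.205 and 2.54 CPM in the control libraries and at 3.11, 3.02 and 3.29 CPM in the NFL libraries. The NFL values lay inside the control range, control replicate 2 being the highest. The log2 fold change was -0.02 with a wide interval from -0.46 to 0.43 (edgeR adjusted p = 0.984), resting on 50 to 73 reads per library, so a change as large as that of Nfatc2 would not have been detectable here. The sign of this value turned positive without control replicate 2 (0.19, adjusted p = 0.757). Egr2 had 8, 4 and 9 reads in the control libraries and 1, 1 and 7 in the NFL libraries, which overlap and are too few for the test. Egr3 had no reads in any of the 6 libraries, which allows up to 3 reads in each.

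Myc was at 106.7, 113.0 and 113.2 CPM in the control group and at 106.8, 105.9 and 105.5 CPM in the NFL group. The lowest control library and the highest NFL library nearly coincided, so the groups just overlapped. The means stood at 111.0 ± 3.71 and 106.1 ± 0.680 CPM (SD, n = 3 each). The log2 fold change was -0.06 (95% interval -0.15 to 0.02, edgeR adjusted p = 0.434). With 1720 to 2765 reads per library, the interval leaves out a rise above 1.01-fold and a fall below 0.904 of the control level.

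**Figure D3:**
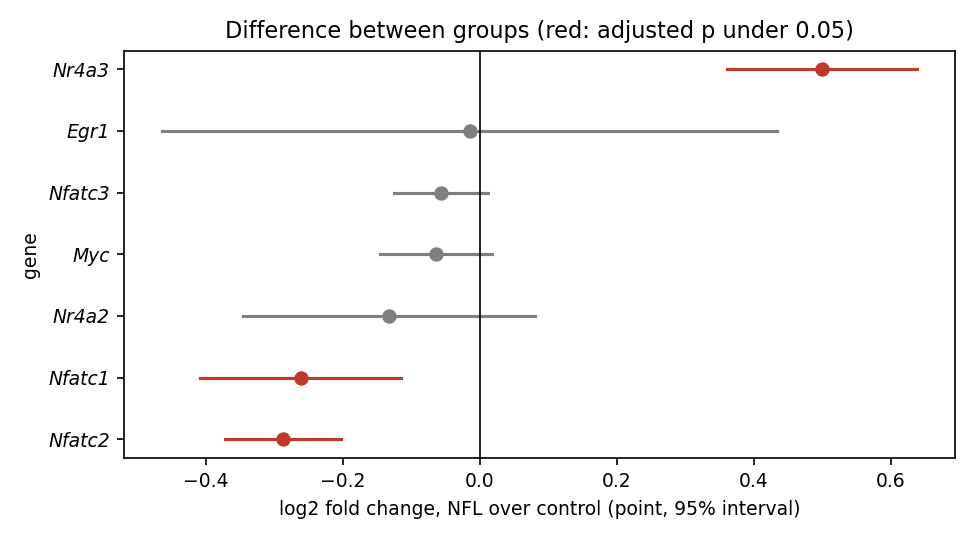
Log2 fold change of NFL over control with its 95% interval for each tested member, from edgeR. The intervals of Nr4a3 (0.36 to 0.64), Nfatc1 (-0.41 to -0.11) and Nfatc2 (-0.37 to -0.20) leave out 0, and that of Egr1 is the widest.

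Levels per kilobase of exon put the members in nearly the same order in both groups. In the control group Myc came first at 40.8 ± 1.37 CPM per kilobase, then Nfatc3 at 14.98 ± 0.238, Nfatc2 at 11.2 ± 0.276, Nr4a3 at 4.60 ± 0.266, Nfatc1 at 4.32 ± 0.212, Nr4a2 at 3.25 ± 0.181 and Egr1 at 0.722 ± 0.193 (SD, n = 3). Egr2 followed at 0.0927, and Nr4a1 and Egr3 were at or near 0. Nr4a3 and Nfatc1 were the only neighbours above the floor whose control libraries overlapped. In the NFL group these genes stood apart, at 6.51 ± 0.180 for Nr4a3 and 3.61 ± 0.245 for Nfatc1. The exon length of Myc came from another version of its gene model than the one in the table.

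The depth and identity of the libraries bear on all of these values. Total counts ran from 15843045 to 24639756 per library. Of the T-cell markers, Thy1 had a median of 1641 CPM and Cd3e one of 53.6 CPM. The medians of Cd3g (7.63 CPM), Lck (4.43 CPM) and Cd3d (4.15 CPM) were low, and Cd2 had no reads. Cd8a lay at 3.20 to 4.46 CPM and Cd8b1 at 0.870 to 1.57 CPM, while Cd4 lay at 23.3 to 27.6 CPM (values not corrected for length), so CD8 transcripts were low for the CD8 identity in the design text, and the cells are called T cells here. A single gene segment, Trbv1, took 99.9% to 100% of the reads on T-cell receptor beta variable segments. This held in all 6 libraries, and whether the cells descended from a single clone or came from separate animals was not tested. Over the floor in every library were 5 of 6 T-cell, 2 of 5 B-cell, 1 of 6 macrophage, 1 of 3 natural killer cell and none of the 3 erythroid markers. Of the B-cell markers Ms4a1 and Ighm and the macrophage markers Lyz2 and C1qa, none exceeded 2 reads in a library. Erythroid markers summed to at most 0.244 CPM in any library. The 3 markers that were called moved in the same direction as Nfatc1 and Nfatc2, namely Cd3e (log2 fold change -0.28, adjusted p = 0.000572), Cd68 (-0.26, adjusted p = 0.0494) and the natural killer receptor gene Klrb1c (-0.51, adjusted p = 2.43e-06). T-cell markers, nearly all from Thy1, summed to 1693 to 1789 CPM in the control and 1639 to 1735 CPM in the NFL group. Macrophage markers, nearly all from Cd68, summed to 24.5 to 27.5 and 19.2 to 23.4 CPM. Those of natural killer cells, all from Klrb1c with Ncr1 and Klra8 at 0, summed to 29.7 to 32.9 and 22.03 to 22.7 CPM. B-cell markers, chiefly Cd79a and Cd79b, summed to 2.64 to 3.11 and 3.04 to 3.66 CPM. The part of other cells in the NFAT values was not tested, and in bulk samples fewer cells of a type and less RNA per cell cannot be told apart.

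Genes that act upstream of NFAT were examined next. Of 15 genes of calcium entry and calcineurin, 14 were tested, 4 were called and all 4 were lower (28.6%, against 3.53% called lower over all genes tested), with a median log2 fold change of -0.06 against -0.00099 over all genes. Called Itpr3 and Calm2 lie above 100 CPM, and among all genes of at least 100 CPM, 7.32% were called lower. Orai2, a pore subunit of the store-operated calcium channel, fell from 26.3, 24.6 and 25.8 CPM to 19.4, 21.5 and 20.6 CPM (log2 fold change -0.32, adjusted p = 0.00640). Ppp3cc, a calcineurin catalytic subunit otherwise known from testis, fell from a range of 39.5 to 42.4 to one of 31.5 to 35.5 CPM (-0.27, adjusted p = 0.00632). Itpr3, a receptor that releases calcium from the endoplasmic reticulum, fell from 253.9 to 256.4 CPM to 225.9 to 226.2 CPM (-0.17, adjusted p = 0.000124). Calm2, a calmodulin gene named here after its value was seen, was the fourth (-0.09, adjusted p = 0.0290). The main T-cell calcineurin subunits did not pass, with log2 fold changes of -0.02 for Ppp3ca, 0.02 for Ppp3cb and 0.05 for Ppp3r1. The call of Ppp3cc was lost without control replicate 1 (adjusted p = 0.0667) and without NFL replicate 2 (adjusted p = 0.0972), and without the latter 2 genes of the list were called.

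Of 16 genes that restrain NFAT or belong to its wider family, 12 were tested and 1 was called (8.33%, against 7.00% over all genes tested), Gsk3b, a kinase that sends NFAT back to the cytoplasm. Gsk3b was 122.2, 129.1 and 123.8 CPM in the control and 112.7, 110.3 and 118.2 CPM in the NFL libraries (log2 fold change -0.13, adjusted p = 0.0283). Its call did not survive leaving out control replicate 2 (adjusted p = 0.112), NFL replicate 1 (0.102) or NFL replicate 2 (0.206), and was lost with thinned counts (0.0615) and with GC content and length trends removed (0.1002). Rcan1, a calcineurin inhibitor whose short form is an NFAT target, was 9.98 CPM in the control and 10.9 CPM in the NFL group and did not pass the test (log2 fold change 0.12, adjusted p = 0.632). The list's median was -0.04, and without control replicate 3 its called genes numbered 2.

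Among 11 cytokine and ligand genes that NFAT binds in activated T cells, 5 were tested and 3 were called, all higher (60.0%, against 3.47% called higher over all genes tested). Ifng, the interferon of effector T cells, was 10.8, 8.66 and 12.5 CPM in the control and 19.9, 18.7 and 18.6 CPM in the NFL libraries (log2 fold change 0.82, SE 0.106, adjusted p = 1.15e-07). Csf2, which encodes GM-CSF, rose from 8.37, 8.53 and 9.66 CPM to 13.4, 12.03 and 14.8 CPM (0.60, SE 0.116, adjusted p = 0.000327). Tnf rose from 77.3 to 91.2 CPM to 93.5 to 101.6 CPM (0.22, SE 0.0480, adjusted p = 0.00168). These 3 calls held in all 15 alternatives. The other tested genes, Il13 and Fasl, did not pass, and Il2, Il3, Il21 and Cd40lg had no reads in any library.

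Among 22 EGR partners and other immediate early genes, 18 were tested and 4 were called (22.2%, against 7.00% over all genes tested), 1 higher and 3 lower, with a median of -0.01. Ier2, an immediate early gene, was 25.7, 26.1 and 21.6 CPM in the control and 28.3, 30.8 and 31.9 CPM in the NFL libraries (log2 fold change 0.32, adjusted p = 0.00646), a call lost without control replicate 3 (adjusted p = 0.106) or NFL replicate 3 (adjusted p = 0.0877). Mrtfa, a coactivator of the serum response factor, stood at -0.25 (adjusted p = 0.0323), and Elk3, a partner of the same factor, at -0.23 (adjusted p = 0.0389). Mrtfa was not called without control replicate 1 or 3 or NFL replicate 1 or 3 (adjusted p 0.106 to 0.141), nor Elk3 without any library but control replicate 2 (adjusted p 0.0529 to 0.227). Zfp36l2, an RNA decay factor named here after its value was seen, was the other gene called lower (-0.18, adjusted p = 3.96e-05). The EGR corepressors Nab1 and Nab2 did not pass, with log2 fold changes of -0.07 and 0.15. Egr4 had no reads. Without control replicate 3, and without NFL replicate 3, 1 gene of the list was called, and 2 were without control replicate 1, without NFL replicate 1, with no filter, with the DESeq2 Wald test and with GC content and length trends removed.

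Of 17 genes of the anergy programme that NFAT, EGR2 and EGR3 drive, 14 were tested, 1 was called higher and 2 lower (21.4% called, against 7.00% over all genes tested), with a median of -0.04. The called genes lie above 100 CPM, and among all genes of at least 100 CPM, 17.7% were called. Ikzf1, which encodes the lymphoid repressor Ikaros, fell from 312.1 to 320.6 CPM to 267.3 to 274.0 CPM (log2 fold change -0.22, adjusted p = 4.12e-07). Lag3, an inhibitory receptor, stood at -0.15 (adjusted p = 0.0173) and was not called without control replicate 2 (adjusted p = 0.0976), NFL replicate 2 (0.239) or NFL replicate 3 (0.0518). The ubiquitin ligase genes Cblb, Itch and Rnf128, central to anergy, did not pass.

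The list tied to NR4A and TOX in exhausted T cells, with the NR4A partners Rxra and Rxrb, had 5 of 11 genes tested, and 4 were called (80.0%, against 7.00% over all genes tested), 1 higher and 3 lower, with a median of -0.15. Havcr2, the gene of the inhibitory receptor TIM-3, rose from 155.6 to 163.0 CPM to 179.5 to 189.3 CPM (log2 fold change 0.19, adjusted p = 0.000119). Tigit, another inhibitory receptor, fell from 10.8, 11.2 and 9.05 CPM to 7.21, 6.16 and 7.19 CPM (-0.59, adjusted p = 0.00209). Rxra, a nuclear receptor with which Nr4a1 and Nr4a2 can pair, stood at -0.29 (adjusted p = 0.0138), a call lost without control replicate 1 (adjusted p = 0.0647), NFL replicate 2 (0.0753) or NFL replicate 3 (0.0958). The third lower gene was Lag3, which both lists hold. Without NFL replicate 2, and likewise without NFL replicate 3, 2 genes of this list were called. Pdcd1, the gene of PD-1, had 3 to 13 reads and Tox 0 to 2 reads per library, too few for the test, so the list was mostly not readable in these cells.

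Of 18 genes around MYC and MAX, 15 were tested and 3 were called, all lower (3.53% were called lower over all genes tested), with a median of -0.03. Mxd4, a MYC antagonist that takes MAX away from it, fell from 30.5, 29.5 and 29.6 CPM to 23.0, 20.2 and 19.1 CPM (log2 fold change -0.53, adjusted p = 3.56e-06) and was called in all 15 alternatives. Mxi1, another antagonist, stood at -0.21 (adjusted p = 0.0469) and was lost without any 1 of the 6 libraries (adjusted p 0.0520 to 0.166). Trrap, a scaffold of the acetyltransferase complexes that MYC recruits, stood at -0.12 (adjusted p = 0.0232) and was not called without replicate 1 or 2 of either group (adjusted p 0.0604 to 0.205) or with GC content and length trends removed (-0.05, adjusted p = 0.494). Leaving out any of those 4 libraries, or removing the trends, left 1 gene of the list called. Mycn, the closest relative of Myc, was 90.02 CPM in the control and 82.2 CPM in the NFL group and did not pass (-0.13, adjusted p = 0.0694), and Max was at -0.04 (adjusted p = 0.629).

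All 29 well-known MYC target genes of growth and metabolism were tested, and 11 were called, all higher (37.9%, against 3.47% called higher over all genes tested), while Myc itself did not pass. Their median log2 fold change was 0.09. Among all genes of at least 100 CPM, 10.4% were called higher. Odc1, the rate-limiting enzyme of polyamine synthesis, rose from 1155, 1161 and 1152 CPM to 1469, 1505 and 1487 CPM (log2 fold change 0.36, SE 0.0253, adjusted p = 3.18e-16). Npm1, a nucleolar protein of ribosome assembly, rose from 1852 to 1953 CPM to 2100 to 2121 CPM (0.16, adjusted p = 6.33e-06). Hspd1, the mitochondrial chaperonin HSP60, rose from 1583 to 1626 CPM to 1757 to 1776 CPM (0.14, adjusted p = 5.70e-05). These 3 calls held in all 15 alternatives, but the count over the list was 6 without NFL replicate 2 and 5 without NFL replicate 3. The lists were drawn up with earlier results of these data known, and their counts and medians are descriptions.

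**Figure D4:**
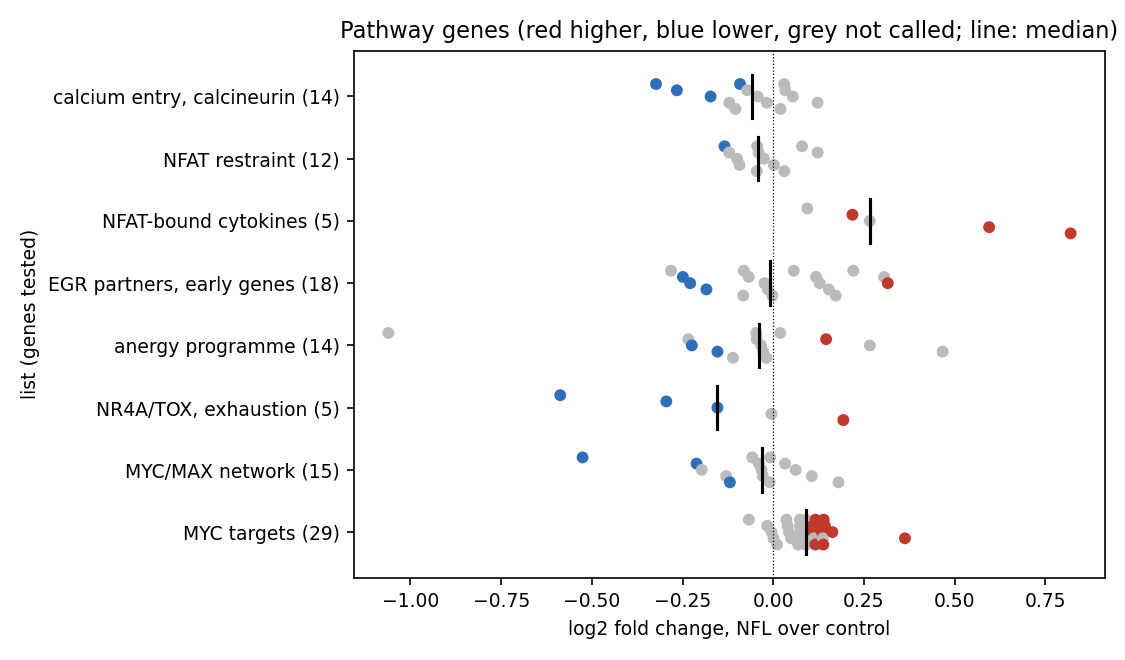
Log2 fold change of NFL over control for every tested gene of the 8 lists, with genes called higher in red, called lower in blue and not called in grey, and a vertical line at each list's median. The MYC target genes called lie to the right of 0 (11 of 29 tested) and the calcium entry and calcineurin genes called to the left (4 of 14 tested).

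The genes whose log2 CPM ran most closely with that of each called member over the 6 libraries were picked from the 11367 tested genes whose mean log2 CPM reached 1. For Nr4a3 these were Mettl16 (Pearson's r = 0.997), Nop10 (0.994) and Hspd1 (0.994), and 130 genes reached 0.95. For Nfatc2 they were Gm10390 (0.992), Gm44037 (0.992) and Zmiz1 (0.992), with 128 genes at 0.95 or more. For Nfatc1 they were Setd5 (0.996), Taok2 (0.993) and Fryl (0.990), none of them called, with 42 genes at 0.95 or more. The 6 libraries fall into the 2 groups, so for Nr4a3 and Nfatc2 such a correlation mostly restates a difference between groups, and it is given as a description.

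**Figure D5:**
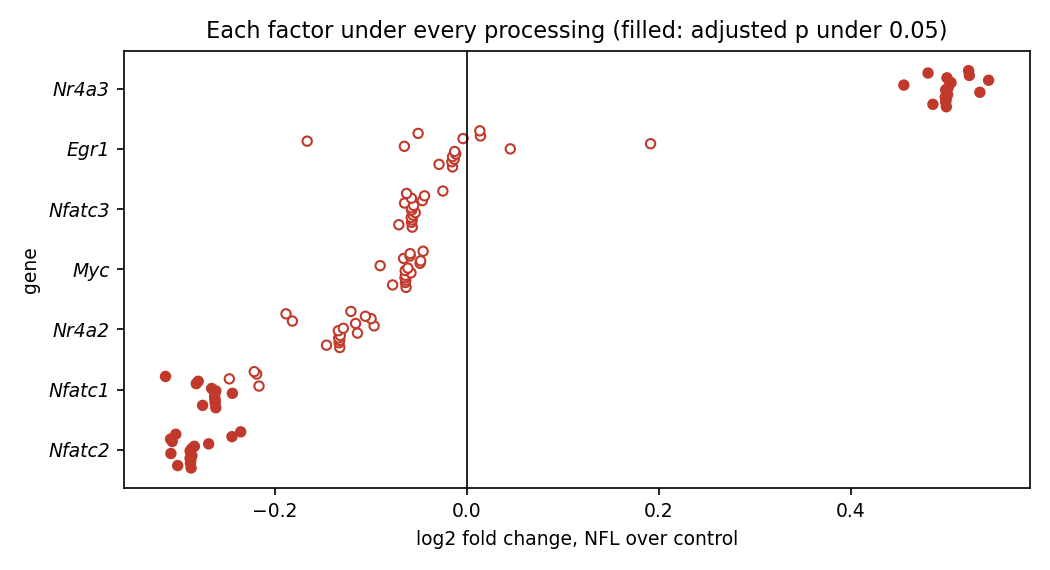
Log2 fold change of each tested member as reported and under each alternative processing, filled where the adjusted p was under 0.05, with no point for Egr1 under the DESeq2 Wald test, which gave it no adjusted p. Nr4a3 (0.46 to 0.54) and Nfatc2 (-0.31 to -0.24) stay filled throughout, Nfatc1 is open in 4 alternatives, and Egr1 lies on both sides of 0 (-0.17 to 0.19).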

How the data were processed

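RNA of 6 mouse T-cell samples was measured. The authors deposited raw read counts of 55401 genes, not normalized, with 1 column per sample. The processing notes name R 4.2.1, limma 3.54.2 and build GRCm39, without their role, while aligner, counter, annotation and strandedness are not given in the sources used here. Symbols matched 55141 identifiers, and 54349 identifiers were identical to GENCODE M21, which is on GRCm38 and served for exon lengths, overlaps and GC content. Genes were filtered with filterByExpr (minimum count 10, minimum total 15), TMM-scaled and tested in R 4.3.3 by the quasi-likelihood functions of edgeR 4.0.16 over all 14082 genes, called at a Benjamini-Hochberg adjusted p under 0.05. The common biological coefficient of variation was 3.48%. CPM used TMM-scaled libraries, whose totals set the precision, and floors of 3 reads cover counting error only. No 2 libraries were copies, the smallest chi-square over degrees of freedom being 1.88. The steps were tested on simulated data. Alternatives used DESeq2 1.42.0 and limma-voom of limma 3.58.1, and trends in GC content and length were removed with mgcv 1.9.3. Promoters were from RefSeq. Named genes were all members, up to 3 called genes of largest change per list, the 3 genes most like each called member, and genes overlapping a member. A few list genes count in the totals but their own values are not reported here. Members and lists were chosen with earlier results of these data known.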

Additional observations from a re-analysis of the deposited data

How the results depend on the processing

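Nr4a3 and Nfatc2 kept direction and call in all 15 alternatives (other scalings, filters and tests, a replicate block, thinned counts, each library left out, and GC content and length trends removed, the last chosen after seeing the data). With GC content and length trends removed, 1 member was called lower in place of 2, because Nfatc1 was lost. Egr1, never called and given no adjusted p by the DESeq2 Wald test, turned positive with limma-voom (log2 fold change 0.045), with GC content and length trends removed (0.013) and without control replicate 2 or NFL replicate 2, its range with 1 library left out being -0.17 to 0.19, and the cause was not tested. Leaving out 1 library at a time gave 2 to 3 members called, 1 to 1 higher and 1 to 2 lower. In the same way 19 to 29 list genes were called against 32 (10 to 18 higher against 17, 7 to 14 lower against 15), with 19 without NFL replicate 2 and also without NFL replicate 3. List genes called higher numbered 10 without NFL replicate 3, and those called lower 7 without NFL replicate 2 and 9 without control replicate 1, NFL replicate 1 or NFL replicate 3. Over all genes, 508 to 966 were called against 986 (250 to 514 higher, 258 to 452 lower), with 508 without NFL replicate 3 and 616 without NFL replicate 2 (310 lower without control replicate 1), and fewer samples were tested in each of these fits. The split of 489 higher and 497 lower genes was 372 and 600 with library size alone, and 596 and 364 with GC content and length trends removed. Correlations of deviations between same-numbered libraries were small (0.0077 to 0.0173), though above those between differently numbered libraries (-0.0215 to 0.00652). Values this small do not settle whether the numbers pair the samples. With the replicate number as a block, 3 members, 32 list genes and 1049 genes were called, and no member's call changed. Depth limits Egr1, Egr2, Egr3 and Nr4a1, of which 3 could not be tested.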

Other observations

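Windows of Egr2 and Nfatc3 were also searched. Of the 5 Egr2 start sites in RefSeq, 3 had 2 half-sites of the cAMP response element each and 4 had a CArG box, the binding motif of the serum response factor, which 1.63% of windows hold. The 3 Egr2 windows with half-sites overlap, so their half-sites, and likewise their CArG boxes, are the same letters counted again. Of the 2 Nfatc3 windows and of the 5 Egr2 windows, 1 each held an E-box of MYC, CACGTG, present in 7.15% of windows. The Nr4a1 window held an NF-kB motif across the start site, present in 4.51% of windows. In the RNA, Egr2 had at most 9 reads in a library.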
